A study of Mus musculus with 4 samples.

Results

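p63 (Trp63) and 6 genes that accompany it in stratified epithelium (Sfn, Ripk4, Fermt1, Pdpn, Tfap2a and Tfap2c) were followed in the developing mouse prostate, as 7 of the 49671 gene rows measured by RNA-seq. The genes were listed by name, as p63, its partners and its reported targets, and not by a threshold on a value. RNA abundance in 2 cell types does not test whether p63 acts on them. RNA came from prostate tips, the growing ends of the ducts, cut from the ventral lobe of untreated CD-1 mice at postnatal days 10 to 13, as the labels give it. The methods of the study give a slightly narrower age range and describe the mice as males of mixed background. FACS on live cells depleted of CD45-, CD31- and CD140a-positive cells gave basal cells, which were EpCAM high and CD49f high, and luminal cells, which were EpCAM high and CD49f low. At this age the basal cells are multipotent and the luminal cells derive from them. Each population had 2 libraries, numbered 1 and 3 for basal cells, and 3 and 2 for luminal cells. The ventral lobes of many mice were used, and no label says that the libraries came from separate animals, so every p-value measures only the spread between these libraries. With 2 libraries against 2, an exact permutation test of a single gene cannot give a two-sided p below 0.333, and each test therefore came from a fit across all genes.

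p63 is a transcription factor of the p53 family that marks the basal layer of stratified and pseudostratified epithelia. In the prostate, staining for p63 is a standard way to recognise basal cells. Its gene uses alternative promoters, giving longer TAp63 forms and shorter deltaNp63 forms, of which the shorter predominate in basal cells. Counts per gene cannot separate these forms. p63 is known for holding the keratin, adhesion and basement membrane programme of basal cells in place.

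The other genes fall into 3 roles. Tfap2a and Tfap2c encode AP-2 transcription factors that work with p63 in the epidermis. Sfn encodes 14-3-3 sigma, an adaptor of the cell cycle and of epithelial differentiation, and Ripk4 encodes a kinase needed for epidermal differentiation. Pdpn encodes podoplanin, a membrane mucin, and Fermt1 encodes kindlin-1, which binds integrin tails and links them to the cytoskeleton.

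Each value below is a gene count that the authors scaled to a common library total. Read depth differed between the populations. The spacing of low values showed that 1 read was worth 6.26 and 6.50 in basal replicates 1 and 3, and 19.4 and 31.2 in luminal replicates 3 and 2. Recovered totals ran from 643267 to 3194307 reads per library, with both luminal libraries shallower than both basal ones. Nuclear protein-coding genes held 76.0% and 74.7% of the total value in basal replicates 1 and 3, and 57.3% and 64.2% in luminal replicates 3 and 2. All 7 genes passed the filter on low values, 10 or more in each library of a population and a mean of 20 or more, in both populations.

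Markers matched the labels of the sort. Leaving out Itga6, which encodes the sorted antigen CD49f, the summed value of 4 basal markers was 46049 and 45055 in the basal libraries and 2478 and 1744 in the luminal ones. The summed value of 6 luminal markers was 14297 and 17713 in the basal libraries and 50497 and 32441 in the luminal ones. Markers of other cells were present in each population. Taking the libraries as basal replicates 1 and 3, then luminal replicates 3 and 2, the sum of 7 stromal markers was 105984, 213482, 73073 and 205799. The sum of 5 smooth muscle markers was 30255, 52272, 9887 and 60111 in the same order, and Pdgfra, the gene of the depleted antigen CD140a, measured 3307, 4144, 2575 and 8383. In that order too, 4 urothelial markers summed to 163, 149, 1201 and 1215, and 5 blood endothelial markers to 1535, 1585, 581 and 1745. Among the latter, Pecam1, the gene of the depleted antigen CD31, measured 833, 637, 174 and 499. The sum of 5 immune markers was 3012, 1753, 794 and 2087, most of it Cd3e at 2173, 1462, 639 and 1807, whereas Ptprc, the gene of the depleted antigen CD45, measured 150, 6, 0 and 0. Pecam1 was lower in both luminal than in both basal libraries, and Pdgfra was not. No stromal or smooth muscle marker was at 0 in any library, and both sums were higher in basal replicate 3 and luminal replicate 2 than in the other library of the same population. Their part in the results below was not tested, except where a value bears on it.

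Promoter sequence of the genes is given first, since these genes are grouped as p63 and AP-2 associated genes. RefSeq promoter windows on GRCm38.p6 matched 4 of the 7 genes, and 250 bases upstream of the start are printed for the 2 matched genes with the lowest luminal RNA relative to basal RNA, Sfn and Pdpn, and for Fermt1, the gene whose populations overlapped. The window of Sfn lies at chr4:133602169-133602418, that of Pdpn at chr4:143299565-143299814 and that of Fermt1 at chr2:132946037-132946286, all on the minus strand and all upstream of the transcribed region. Capitals mark CATG, a common core of the p53 family motif, or the AP-2 core GCCNNNGGC. Sequences run 5′ to 3′ along the strand of the gene.
Sfn: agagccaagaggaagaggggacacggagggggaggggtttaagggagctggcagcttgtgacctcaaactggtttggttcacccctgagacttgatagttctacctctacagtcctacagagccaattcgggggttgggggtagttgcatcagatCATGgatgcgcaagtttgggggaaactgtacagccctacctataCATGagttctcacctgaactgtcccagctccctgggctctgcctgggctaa
Pdpn: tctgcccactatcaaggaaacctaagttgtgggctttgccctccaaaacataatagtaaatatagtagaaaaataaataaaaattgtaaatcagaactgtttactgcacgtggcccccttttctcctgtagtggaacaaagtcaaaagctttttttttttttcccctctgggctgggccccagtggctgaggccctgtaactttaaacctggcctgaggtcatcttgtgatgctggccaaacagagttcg
Fermt1: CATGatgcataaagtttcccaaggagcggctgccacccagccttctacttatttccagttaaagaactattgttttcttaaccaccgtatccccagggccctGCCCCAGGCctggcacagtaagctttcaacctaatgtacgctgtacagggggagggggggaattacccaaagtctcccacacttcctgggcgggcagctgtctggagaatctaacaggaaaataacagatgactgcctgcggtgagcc
CATG stood at positions -95 and -51 of the Sfn window and at -250 of the Fermt1 window, counted back from the start. Of 32851 promoter windows of this length, 53.9% held CATG, so a match to it is common. The Fermt1 window held 1 AP-2 core, GCCCCAGGC, at -148, and 13.7% of all windows held such a core. The whole p53 family half-site was in 7.13% of all windows and in none of the 5 windows of the 4 matched genes. The motifs read the same on both strands, and CATG can lie within a half-site. These matches describe letters and not bound sites.

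Trp63 RNA abundance was much lower in the luminal than in the basal cells. Trp63 (ENSMUSG00000022510, chr16:25683763-25892102, plus strand, GRCm38) reached a normalized value of 14611 and of 5015 in basal replicates 1 and 3, against 155 and 93 in luminal replicates 3 and 2. Both luminal libraries lay far below both basal libraries, and the luminal values rested on 8 and 3 reads. Means were 9813 ± 6785 for the basal and 124 ± 43.8 for the luminal population (SD, n = 2 each), so that luminal cells held 1.26% of the basal level. limma gave a log2 fold change of -6.14 (SE 0.58) with an adjusted p of 0.0354. In bulk samples, fewer cells of a type and less RNA per cell cannot be told apart. The basal libraries differed 2.91-fold in Trp63, and 5.9% of 12544 genes differed as much between them, and the closest basal and luminal pair differed by -5.02 on the log2 scale.

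Sfn RNA was lower in luminal cells in both libraries. Sfn (ENSMUSG00000047281, chr4:133600556-133602168, minus strand) measured 1898 and 3930 in basal replicates 1 and 3, against 329 and 125 in luminal replicates 3 and 2. The populations did not overlap, and the lower luminal value rested on 4 reads. Means were 2914 ± 1437 and 227 ± 144 (SD, n = 2 each). The log2 fold change of -3.74 (SE 0.60) had a limma adjusted p of 0.0659 and, on recovered reads, an edgeR adjusted p of 0.00202. It stayed negative without any 1 library, from -4.44 without luminal replicate 3 to -3.05 without luminal replicate 2. Trp63 was higher in basal replicate 1 than in basal replicate 3, and Sfn was higher in basal replicate 3.

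Pdpn followed next in size. Pdpn (ENSMUSG00000028583, chr4:143267431-143299564, minus strand) measured 3989 and 3254 in basal replicates 1 and 3, against 290 and 686 in luminal replicates 3 and 2. All basal values exceeded all luminal values. Means were 3622 ± 520 and 488 ± 280 (SD, n = 2 each), a 7.42-fold higher mean in basal cells. The log2 fold change of -3.01 (SE 0.45) had a limma adjusted p of 0.0637 and an edgeR adjusted p of 0.00121. Leaving out 1 library gave from -3.63 without luminal replicate 2 to -2.39 without luminal replicate 3. Podoplanin is also made by lymphatic endothelium and fibroblasts. The luminal library with more Pdpn was the one with the larger stromal sum, whereas the basal library with more Pdpn had the smaller stromal sum. The sum of 4 lymphatic endothelial markers was 1002 and 415 in basal replicates 1 and 3 and 368 and 374 in luminal replicates 3 and 2. Prox1, which defines that lineage, measured 520 and 364 in basal replicates 1 and 3, against 349 and 156 in luminal replicates 3 and 2, and Lyve1, Flt4 and Ccl21a ranged from 0 to 282, with Ccl21a listed at 0 throughout. Neither tool called any of the 3 that the filter kept. Among fibroblast markers, Dcn measured 45830 and 47724 in basal replicates 1 and 3, against 5770 and 20256 in luminal replicates 3 and 2. Its populations did not overlap, as for Pdpn, and its log2 fold change was -2.11, with adjusted p values of 0.143 by limma and 0.0391 by edgeR. Dcn was the only 1 of the 7 stromal markers whose populations were apart, and the median log2 fold change of the 7 was 0.17. The part of fibroblast or lymphatic RNA in the Pdpn difference was not tested.

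The AP-2 factors differed less. Tfap2c (ENSMUSG00000028640, chr2:172549593-172558622, plus strand) measured 1365 and 572 in basal replicates 1 and 3, against 232 and 312 in luminal replicates 3 and 2. Neither luminal library reached the lower basal one. This was a log2 fold change of -1.71 (SE 0.52), with adjusted p values of 0.165 by limma and 0.0604 by edgeR. The size turned on the basal libraries, at -1.09 without basal replicate 1 and -2.34 without basal replicate 3. Tfap2a (ENSMUSG00000021359, chr13:40715302-40738376, minus strand) measured 2123 and 1617 in basal replicates 1 and 3, against 1046 and 1122 in luminal replicates 3 and 2. The populations again did not overlap, and the luminal libraries were close to each other. That gave a log2 fold change of -0.77 (SE 0.26), with a limma adjusted p of 0.209 and an edgeR adjusted p of 0.219. An antisense gene, Gm26688, overlaps Tfap2a and measured 50 and 32 in basal replicates 1 and 3, against 194 and 31 in luminal replicates 3 and 2. Use of strand in counting is not given in the sources used here, so reads in the shared stretch cannot be told apart.

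Ripk4 and Fermt1 showed the smallest differences with all libraries in, close to that of Tfap2a. Without luminal replicate 3 the smallest was that of Tfap2a, at -0.72. Ripk4 (ENSMUSG00000005251, chr16:97741933-97763787, minus strand) measured 1760 and 1591 in basal replicates 1 and 3, against 1220 and 810 in luminal replicates 3 and 2. Both luminal values lay below both basal values, by a modest margin. The log2 fold change of -0.75 (SE 0.30) had a limma adjusted p of 0.269 and an edgeR adjusted p of 0.316. It was -0.46 without luminal replicate 2 and -1.05 without luminal replicate 3. Fermt1 (ENSMUSG00000027356, chr2:132904389-132945906, minus strand) measured 1616 and 1143 in basal replicates 1 and 3, against 1278 and 530 in luminal replicates 3 and 2. Luminal replicate 3 lay between the basal libraries, so the populations overlapped. The log2 fold change of -0.72 (SE 0.48) had a limma adjusted p of 0.470, and it was -0.09 without luminal replicate 2 and -1.36 without luminal replicate 3.

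**Figure D1:**
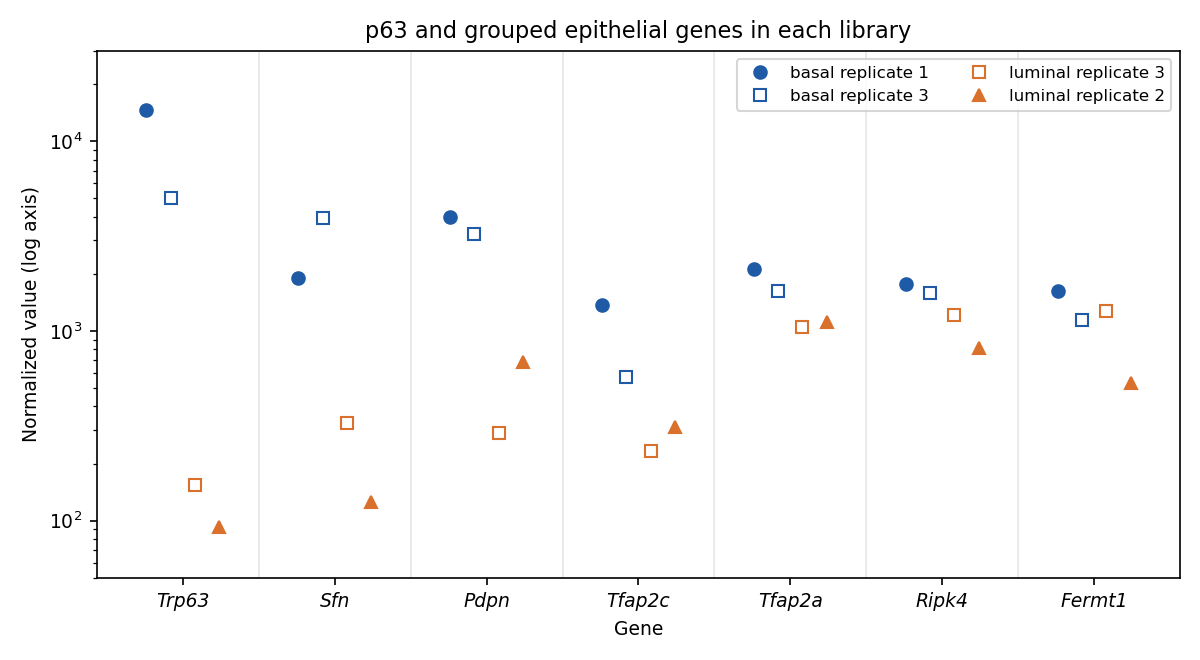
Normalized value (log axis) of each of the 7 genes in basal replicates 1 and 3 (blue) and luminal replicates 3 and 2 (orange), 1 point per library, with genes ordered by log2 fold change. The populations are far apart for Trp63 (5015 and above against 155 and below) and overlap for Fermt1.

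Across the 7 genes, limma called 1 lower in luminal cells, against a background of 0.438% of 18737 genes tested, and called none higher (0.256% of genes). By edgeR on recovered reads 3 were lower, Trp63, Sfn and Pdpn, against 2.72% of genes, and none higher (2.36%). DESeq2 called 3 lower, against 2.27% of genes, and none higher (2.17%). limma with a pseudocount of 30 called 3 lower, against 2.1% of genes, and none higher (1.46%), and with both populations held to the filter 3 lower, against 2.74%, and none higher (1.8%). At an unadjusted limma p under 0.05, 5 of the 7 passed, against 18.5% of genes in either direction. A ratio of group means of 0.5 or less, with no test, held for 4 of the 7, against 16.3% of genes, and a ratio of 2 or more for none (18.3%). Both luminal libraries lay below both basal libraries for 6 of the 7, against 27.3% of genes, and above them for none (23.6%). The median log2 fold change of the 7 was -1.71, beside -0.10 over all genes tested. Without any 1 library, limma called none of the 7, with 3 or 4 at an unadjusted p under 0.05 (11.7% to 21.5% of all genes), and the Trp63 log2 fold change stayed between -6.91 (without basal replicate 3) and -5.37 (without basal replicate 1) with adjusted p values of 0.0656 to 0.194.

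**Figure D2:**
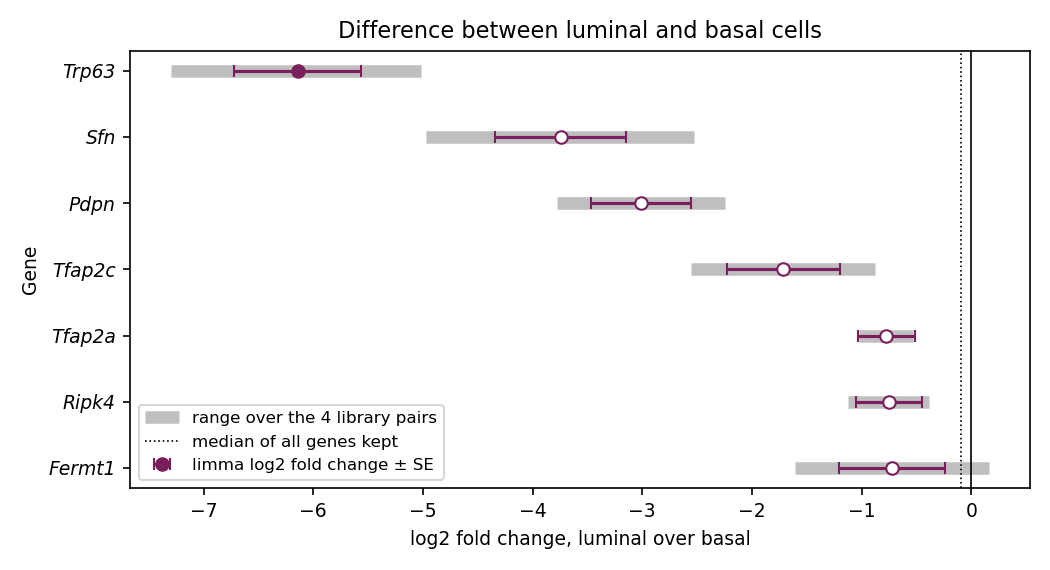
Log2 fold change of luminal over basal cells for each gene, with points for the limma estimate (filled where the adjusted p was under 0.05), error bars for 1 SE, grey bars for the range over the 4 pairings of a luminal with a basal library, and a dotted line at the median of all genes. The Trp63 range (-7.30 to -5.02) does not touch the Sfn range (-4.97 to -2.53), and the Fermt1 range crosses 0.

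The order of RNA levels differed between the populations when values were set per kb of exon, the scale on which genes can be compared. In basal cells the mean per kb was 1993 ± 286 for Pdpn, 1807 ± 891 for Sfn and 1169 ± 809 for Trp63 (SD, n = 2 each). Sfn overlapped both of the others between libraries, and Pdpn was above Trp63 in every library. All 3 lay above Ripk4 at 467 ± 33.3, Tfap2a at 381 ± 73.0, Tfap2c at 263 ± 152 and Fermt1 at 242 ± 58.7. In the latter set, Ripk4 exceeded Tfap2a in each library, and Tfap2c overlapped both Tfap2a and Fermt1. In luminal cells Ripk4 stood at 283 ± 80.7, Pdpn at 269 ± 154, Tfap2a at 221 ± 11.0, Fermt1 at 159 ± 92.8 and Sfn at 141 ± 89.4, with each neighbour overlapping the next. Tfap2c at 73.9 ± 15.4 overlapped with Sfn, and Trp63 at 14.8 ± 5.22 was the lowest of the 7 in each luminal library. Trp63 thus stood above 4 of the other 6 genes in basal cells and below all of them in luminal cells.

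Shares within each gene family give a ratio that does not depend on the scaling of a library. Trp63 held 90.8% (95% Wilson interval 89.7 to 91.9) and 78.1% (75.4 to 80.5) of p53 family reads in basal replicates 1 and 3. In luminal replicates 3 and 2 it held 17.0% (8.89 to 30.1) and 11.1% (3.85 to 28.1), and Trp53 held 80.9% and 88.9%. The family was thus mainly Trp63 in both basal libraries and mainly Trp53 in both luminal ones. Trp53, the gene of p53, measured 1303 and 1371 in basal replicates 1 and 3, against 736 and 748 in luminal replicates 3 and 2, with a limma adjusted p of 0.162. Trp73, the remaining gene of the family, was counted in 27 and 6 basal reads and in 1 and 0 luminal reads. The intervals cover counting error only.

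Sfn held 6.73% (6.03 to 7.50) and 13.2% (12.2 to 14.2) of 14-3-3 reads in basal replicates 1 and 3, and 1.92% (1.20 to 3.05) and 0.778% (0.303 to 1.98) in luminal replicates 3 and 2. Both luminal intervals lay below both basal ones. Of the other 6 genes of the 14-3-3 family, limma and edgeR called none, with 2 at an unadjusted limma p under 0.05 (18.5% over all genes), and their log2 fold changes ran from -0.92 for Ywhaz to -0.03 for Ywhah. Within the AP-2 family, Tfap2a held 60.2% and 73.2% of reads in basal replicates 1 and 3 and 80.6% and 72.0% in luminal replicates 3 and 2. Tfap2c held 38.7%, 25.9% and 17.9% in the first 3 of these libraries and 10 of 50 reads in luminal replicate 2, and Tfap2b, Tfap2d and Tfap2e had at most 4 reads in any library. Set per kb, Tfap2e took 12.3% of the family in luminal replicate 2, from 3 reads, and 1.47% to 3.19% in the other libraries.

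Ripk4 held 35.9% and 38.7% of RIP kinase reads in basal replicates 1 and 3, and 37.3% and 21.1% in luminal replicates 3 and 2, so its shares overlapped between populations. Its relatives Ripk1, Ripk2, Ripk3 and Dstyk were called by neither tool. Fermt1 held 32.4% and 18.6% of kindlin reads in the basal libraries, and 35.3% and 9.55% in luminal replicates 3 and 2. Most of the remaining kindlin reads were from Fermt2, the broadly made kindlin-2, at 3300 and 5002 in basal replicates 1 and 3, against 2304 and 4986 in luminal replicates 3 and 2. Fermt2 was higher, and the Fermt1 share lower, in the library of each population with the larger stromal and smooth muscle sums.

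**Figure D3:**
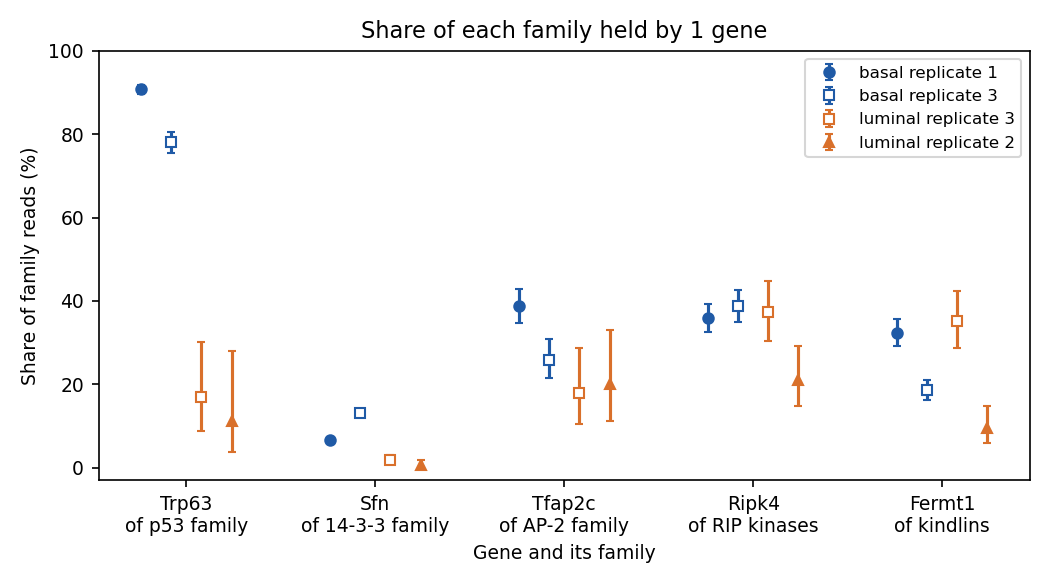
Share of family reads (percent) held by 1 gene in each library, with 95% Wilson intervals as error bars and libraries coloured by population. Trp63 falls from 78.1% or more in basal to 17.0% or less in luminal libraries, and the Ripk4 and Fermt1 shares overlap between populations.

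Among genes reported as p63 targets in epithelia, calls went in 1 direction, lower in luminal cells. Of 30 such genes, 29 were kept by the filter and 26 passed it in both populations. Of the 26, limma called 11 lower and none higher, with 20 at an unadjusted p under 0.05, against 18.5% of all genes. The limma calls compare with 0.438% of all genes lower and 0.256% higher, shares that include genes passing in 1 population only. Fitted on only the genes that passed in both populations, limma called 17 of the 26 lower, against 2.74% of genes. edgeR called 17 of the 26 lower, against 2.72% of all genes, and none higher (2.36%), and it also called Dsc3 and Cdh3, which passed the filter only through the basal cells, where they are high. Without any 1 library, limma called 4 lower, where 0.0744% to 3.9% of all genes were called lower, the lowest share without luminal replicate 2. The median log2 fold change of the 26 genes was -2.04, beside -0.10 over all genes tested. Itga6 encodes CD49f, on which the cells were sorted, and its difference is not independent of the gate. Without Itga6, limma called 10 and edgeR 16 of the 25 remaining genes.

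The targets called by limma with the largest changes are given first. Krt5, a basal keratin, measured 18481 and 15824 in basal replicates 1 and 3, against 77 and 93 in luminal replicates 3 and 2 (log2 fold change -7.64, limma adjusted p 0.00613). Krt14, its keratin partner, measured 10628 and 12173 in basal replicates 1 and 3, against 116 and 93 in luminal replicates 3 and 2 (-6.76, limma adjusted p 0.00613). Col17a1 encodes a transmembrane collagen of hemidesmosomes, and its log2 fold change was -5.47 (limma adjusted p 0.00613). Jag2, a Notch ligand, had -5.39, and Lama3, a chain of laminin-332, had -5.32 (limma adjusted p 0.0184 for both). The others called by limma were Col7a1, Itga3, Perp, Dst, Itga6 and Fgfr2. Krt5 and Krt14 rested on 6 or fewer reads in either luminal library.

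edgeR also called Itgb4, Dsp, Jag1, Egfr, Vdr and Cdkn1c lower, where limma did not. Apart from these and from Dsc3 and Cdh3, the remaining targets were called by neither tool. Evpl, which encodes envoplakin of the cornified envelope, measured 188 and 201 in basal replicates 1 and 3, against 426 and 748 in luminal replicates 3 and 2 (log2 fold change 1.53, limma adjusted p 0.161). Both luminal libraries lay above both basal ones for Evpl and for 2 others, Chuk at 0.50 and Hk2 at 0.58, and neither tool called any of the 3. Fras1, Smarca4 and Fasn also had positive log2 fold changes, from 0.19 to 0.44, with overlapping populations.

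**Figure D4:**
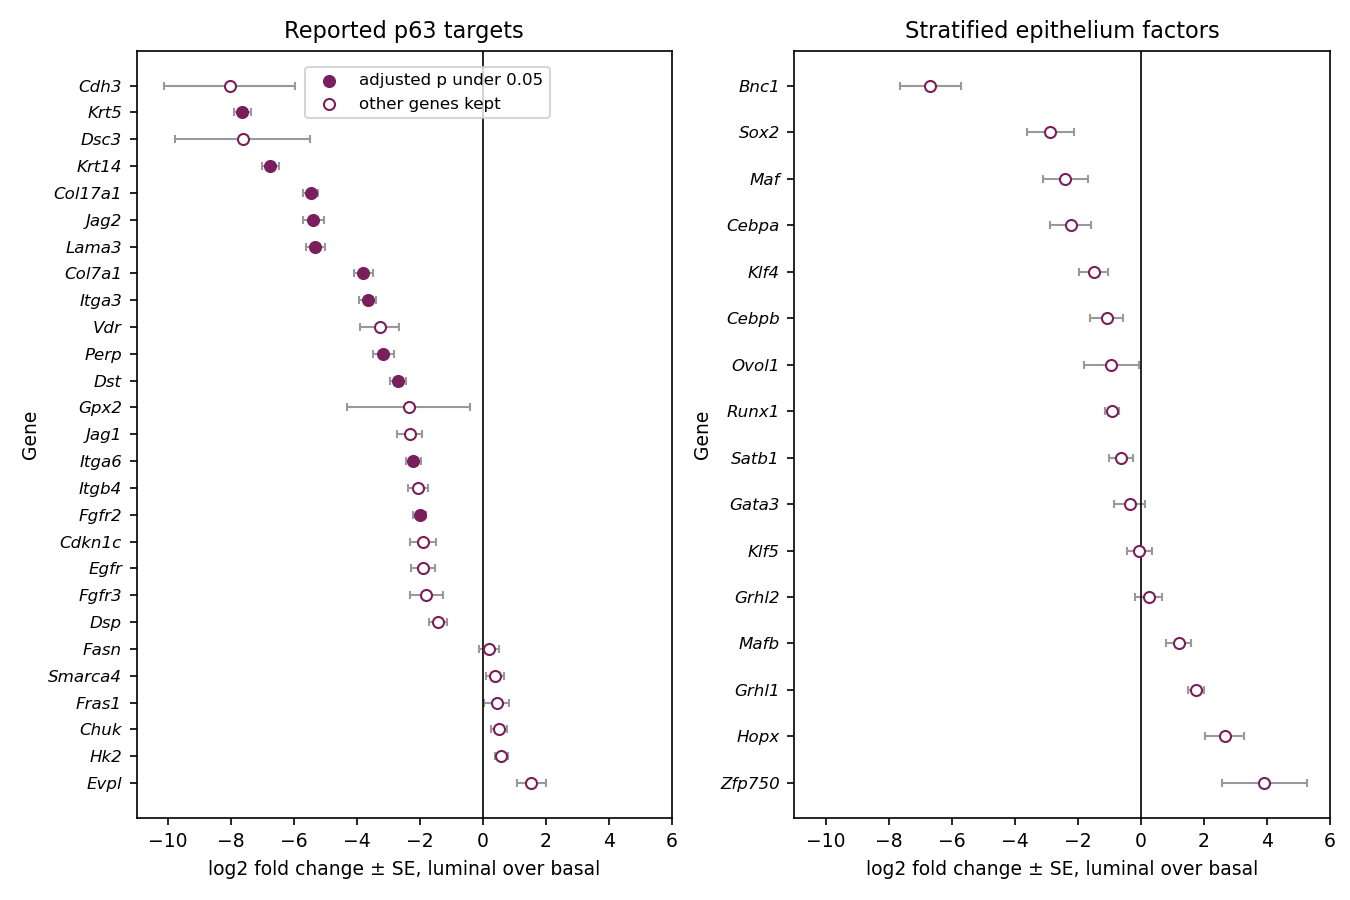
Log2 fold change of luminal over basal cells with SE for 27 reported p63 targets (left) and 16 transcription factors of stratified epithelium (right), filled where the limma adjusted p was under 0.05. Targets reach -7.64 for the called gene Krt5 and no factor was called; estimates of genes with 5 reads or fewer in a luminal library depend on the pseudocount, among them Krt5 (-7.22 with a pseudocount of 30), Krt14, Jag2, Cdh3, Dsc3, Gpx2, Bnc1 and Sox2.

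Transcription factors of stratified epithelium were called in both directions by edgeR and in neither by limma. Of 20 factors, 17 were kept and 15 passed in both populations. limma called none, and 8 of the 15 had an unadjusted p under 0.05, against 18.5% of all genes. By edgeR, Klf4 and Maf were lower, against 2.72% of all genes, and Grhl1 and Hopx were higher, against 2.36%. edgeR also called Zfp750, which passed the filter only through the luminal cells, where it is high. Grhl1, a grainyhead factor of epithelial barriers, measured 651 and 572 in basal replicates 1 and 3, against 2265 and 1870 in luminal replicates 3 and 2. Its log2 fold change was 1.75, with adjusted p values of 0.0637 by limma and 0.0081 by edgeR.

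No gene listed as repressed by deltaNp63 was called higher in luminal cells. Of 5 such genes, 4 were kept, and limma called none, with 2 at an unadjusted p under 0.05, where 18.5% of all genes passed. Notch1, a receptor for Jag2, measured 8480 and 7522 in basal replicates 1 and 3, against 3543 and 2836 in luminal replicates 3 and 2. Its log2 fold change was -1.33, with adjusted p values of 0.0688 by limma and 0.0255 by edgeR. Notch1 was the only 1 of the 4 that edgeR called, where 2.72% of all genes were called lower. Cdkn1a, which encodes the cell cycle inhibitor p21, had a log2 fold change of -1.35 with a limma adjusted p of 0.0872. Hes1, a Notch target, had 0.19, and Igfbp3, a binder of insulin-like growth factors, had 0.64.

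Regulators of p63 protein were measured at the RNA level only. All 10 were kept, limma called none, with 2 at an unadjusted p under 0.05, close to the 18.5% of all genes, and their median log2 fold change was -0.32. Wwp1, a ubiquitin ligase, measured 2405 and 2683 in basal replicates 1 and 3, against 581 and 997 in luminal replicates 3 and 2. It was the only 1 of the 10 that edgeR called, where 2.72% of all genes were called lower. Its log2 fold change was -1.74, with adjusted p values of 0.0144 by edgeR and 0.0705 by limma. Itch, the ligase best known for degrading p63, had a log2 fold change of -0.16 (limma adjusted p 0.738).

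Among partners of podoplanin, called genes went in opposite directions. Of 7, 6 were kept. limma called 1 higher, against 0.256% of all genes, and none lower (0.438%), and edgeR called 1 higher, against 2.36%, and 2 lower, against 2.72%. The gene called higher by both was Ezr, which encodes ezrin, a linker of membrane and actin. Ezr measured 4177 and 3930 in basal replicates 1 and 3, against 13128 and 13431 in luminal replicates 3 and 2, and its log2 fold change was 1.71 (limma adjusted p 0.0469). Moesin (Msn), its relative, had a log2 fold change of -1.54 with adjusted p values of 0.133 by limma and 0.0449 by edgeR. Cd44, the hyaluronan receptor that binds podoplanin, measured 12312 and 14252 in basal replicates 1 and 3, against 4124 and 2150 in luminal replicates 3 and 2. Its log2 fold change was -2.15, with adjusted p values of 0.0659 by limma and 0.00653 by edgeR.

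The genes whose pattern lay closest to Trp63 over the 4 libraries were Jag2, Adamts18, Arhgap24, Krt14 and Sox6, at distances of 1.09 to 1.44 on the log2 scale after centring each gene on its mean. The comparison covered 12544 genes, and the distance describes likeness over 4 libraries only. Genes were centred but not scaled, so the distance also reflects the size of the fold change. The 5 were picked on these same values, so their low luminal values follow from the choice. By this distance Sfn ranked 95 and Pdpn 161, Tfap2c ranked 484, and Tfap2a, Ripk4 and Fermt1 ranked 2150, 2209 and 2212. Adamts18, a secreted protease, measured 1797 and 935 in basal replicates 1 and 3, against 19 and 31 in luminal replicates 3 and 2. Sox6, a transcription factor, measured 1941 and 1916 in basal replicates 1 and 3, against 77 and 31 in luminal replicates 3 and 2. Arhgap24, a GTPase-activating protein, had 2599 and 1624 in basal replicates 1 and 3 and 39 and 62 in luminal replicates 3 and 2. All 5 were low in both luminal libraries, each at 6 reads or fewer.

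**Figure D5:**
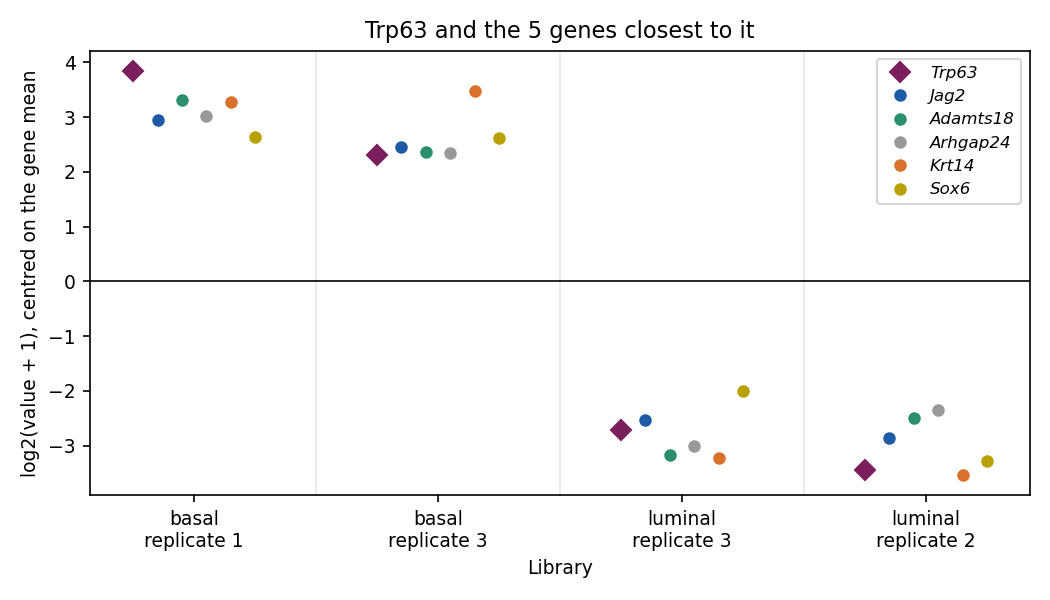
Value of Trp63 (diamonds) and of the 5 genes closest to it (circles) in each library, as log2(value + 1) centred on each gene's mean over the 4 libraries. All 6 genes sit above their mean in both basal libraries and below it in both luminal libraries. For the 5 this follows from the choice by closeness to Trp63 in the same values.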

How the data were processed

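RNA-seq of prostate tip basal and luminal cells, 2 libraries each, was analysed from 1 table. Per the study's methods and processing notes, the authors aligned reads with STAR to GRCm38, used Picard and HTSeq, and deposited the resulting signal, a gene count scaled to a common total in every library. Whether strand was used in counting is not given in the sources used here. All value columns matched a sample (0 unmapped). Of 49671 identifiers, 49326 matched GENCODE. Whole reads were recovered from the spacing of low values, on which 97.9% to 99.0% of them lay. No library had all of its low values on the spacing, and the lowest share was that of basal replicate 3 (97.9%). Luminal replicate 2 (98.2%), with the fewest reads, missed a stricter check of whole reads. In all, 572 genes had a value off the spacing of its library, none of the 7 among them, so read counts, edgeR and DESeq2 rest on a recovery that is not complete.

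Genes at 10 or more in every library of a population, with a population mean of 20 or more, were kept (18737). The main test was limma 3.58.1 on log2(value + 1) (trended prior; Benjamini-Hochberg adjusted p under 0.05), so fold changes of genes with few or no reads in a population depend on the pseudocount. edgeR 4.0.16 and DESeq2 1.42.0 on recovered reads, another filter, a pseudocount of 30, other scalings and leaving out each library were alternatives. Named genes were the 7 members, their families, the 5 largest calls per direction in the target and factor lists at a mean of 100 or more, the smaller lists and the 5 genes nearest Trp63; others named in the text were chosen after their values were seen. Although the rule is a list of names, genes and lists were chosen with earlier results of these data known, so shares set against the background are descriptions. Fold calls used ratios of 2 or 0.5. Values of some listed genes are not reported here.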

Additional observations from a re-analysis of the deposited data

How the results depend on the processing

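No paired analysis was possible because the populations share only replicate number 3. All 7 genes kept a negative log2 fold change under every alternative run. limma called 130 genes in all, beside 678 when both populations had to pass the filter, 0 without a filter (4455 at an unadjusted p under 0.05), 667 with a pseudocount of 30, 438 after quantile normalization, 544 without the trended prior, 951 by edgeR, 831 by DESeq2 and 312 to 991 without 1 library. Genes past a fold of 2 numbered 6482, beside 3644 under the stricter filter, 14341 without one, 2589 at a fold of 4 and 7145 to 9175 without 1 library. Of the 7 genes, limma called 1, beside 3 under the stricter filter, with a pseudocount of 30, by edgeR and by DESeq2, and 0 without a filter (5 at an unadjusted p under 0.05) or without any 1 library. By fold, 4 to 6 passed without 1 library, the 6 without luminal replicate 3. Called targets numbered 11, beside 17 under the stricter filter, 0 without a filter, 18 with a pseudocount of 30, 7 without the trended prior, 19 by edgeR and by DESeq2 and 4 without any 1 library. The 18 and the 19 include Dsc3 and Cdh3, which passed the filter only through the basal cells, where they are high. The median of the 26 targets that passed in both populations was -2.04. Over all 29 kept, 3 of which passed only through the basal cells, the median was -2.21. It was -2.04 with a pseudocount of 30, -1.80 after quantile normalization and -1.90 under nuclear protein-coding scaling. By edgeR it was -1.99, by DESeq2 -1.97, and without 1 library -2.40 to -2.06. Trp63 missed the threshold without a filter (-6.14, adjusted p 0.228) and without 1 library (-6.91 to -5.37, the lone library assumed to vary like the rest). The cause was not tested. The all-gene median, -0.10, became 0.21 under nuclear protein-coding scaling. Under that scaling the small differences shrank, to -0.46 for Tfap2a, -0.44 for Ripk4 and -0.41 for Fermt1. Luminal values of the 7 genes rest on 3 to 66 reads, and those of Trp63, Sfn, Tfap2c and Pdpn on 22 or fewer, which limits their precision.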
